A study of Mus musculus with 12 samples.

Results

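The 8 genes described here encode caspases and the proteins that hold caspases in check, and they were measured in mouse splenic dendritic cells (DCs). They are the inflammatory caspases Casp1 and Casp4, the initiator caspases Casp8, Casp9 and Casp2, the executioner caspase Casp6, and the inhibitors Cflar and Xiap. A probe set was taken as a measure of a gene when it was annotated to that 1 symbol only. All 8 genes had such a probe set, among 18194 genes of the table with one and 15019 genes that were tested. The 8 genes have 21 such probe sets in all, and all 21 passed the filter on low values. Casp1, Casp2, Casp4 and Casp8 have 1 each, Casp6 has 2, Casp9 has 3, Cflar has 5 and Xiap has 7.

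Caspases are proteases that wait in the cell as inactive precursors. Initiator caspases are activated on platforms that assemble at death receptors or around released cytochrome c, and they cleave the executioner caspases that dismantle the cell, whereas inflammatory caspases act in inflammasomes, process pro-inflammatory cytokines and open membrane pores through gasdermin D. The protein of Cflar, cFLIP, competes with caspase-8 at the death receptor, and XIAP binds and blocks caspases directly. In DCs these genes bear on how long an activated cell lives and on whether it dies with the release of inflammatory mediators.

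The 4 groups were aly treated, WT treated, aly untreated and WT untreated DCs, with 3 arrays each. Alymphoplasia (aly) mice carry a point mutation of Map3k14, which encodes NIK, the kinase that starts the non-canonical NF-kB pathway, in all of their cells. The mice called wild type (WT) were their heterozygous littermates, so both genotypes share the litter background and the WT mice also carry 1 aly allele. Treated mice received 25 µg of LPS, the Toll-like receptor agonist of bacterial cell walls, together with 100 µg of an agonistic antibody against CD40 by intraperitoneal injection, and their DCs were taken after 6 hours. Untreated mice received neither agent. Each array carried amplified RNA of DCs pooled from 3 mice, enriched with CD11c beads before a flow sort. The p-values therefore measure the spread between pools and not between single mice.

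Values are the deposited probe set intensities, on a linear scale on which every array has the same trimmed mean. Levels of different probe sets cannot be compared on such arrays. A log2 change is the difference between group means of log2(intensity + 16), given with its standard error, and folds derived from it understate the change of dim probe sets. A gene was called when the limma p, adjusted by the Benjamini-Hochberg method over all 15019 genes of a comparison, was under 0.05. Each gene stands for the probe set with its highest mean log2 value.

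Several features of the arrays differed between the groups or set arrays apart. The array of aly treated replicate 1 had rank correlations of 0.52 to 0.648 with the other arrays, whose own highest correlations were 0.837 to 0.911. Its hybridization controls averaged 15290, against 917.1 to 1864 on the other arrays. It also had the highest median intensity, 53.4, and the lowest array weight, 0.13. The log2 ratio of 3′ to 5′ probe sets of Actb and Gapdh, a measure of RNA degradation, was 2.17 to 5.66 on aly arrays and 1.38 to 1.83 on WT arrays, and 2.17 to 3.11 on aly arrays without that replicate. Spike-in controls added as polyadenylated RNA averaged 5 to 22.5 on the 4 arrays numbered replicate 1 and 108.1 to 1143 on the other 8, so replicate 1 is also set apart from replicates 2 and 3 below. All 6 pan-DC markers were measured, with summed intensities of 26100 to 47050 on aly treated and 18020 to 27710 on WT treated arrays. On untreated arrays the sums were 34590 to 37340 in aly and 30340 to 32920 in WT, without overlap. These sums were mostly H2-Ab1 and Cd74. The highest sum was on aly treated replicate 1, with H2-Ab1 at 19890 and Cd74 at 26470. The other pan-DC markers had their lowest values of all arrays there, with Itgax at 229.7, Flt3 at 267.4, Zbtb46 at 44 and Dpp4 at 152.2. Markers of the cDC2 subset, 4 of 5 measured, summed to 2709 to 4112 on aly untreated and 1465 to 1758 on WT untreated arrays. Treated arrays overlapped, at 2340 to 3400 in aly and 2093 to 3241 in WT. Irf4 was lower in aly under both conditions, and Sirpa was higher in aly among untreated DCs. Sirpa among treated DCs, and Cd4 and Itgam under both conditions, overlapped between the genotypes. The summed intensity of 9 red pulp macrophage markers was 18310 to 52430 on aly treated and 1595 to 11920 on WT treated arrays. It was 26430 to 35970 on aly untreated and 830.6 to 8896 on WT untreated arrays. On WT treated arrays Cd163 was at 1.8 to 8.1, below the array medians of 21.5 to 23.9, and the other markers exceeded the median of their array. The 4 erythroid markers measured, of 7 listed, summed to 441.8 to 4224 on aly treated, 20.4 to 308.7 on WT treated, 732.3 to 1474 on aly untreated and 16.7 to 147.9 on WT untreated arrays. Monocyte markers, 3 of 4 measured, summed to 9497 to 14170 on aly treated, 507.2 to 4442 on WT treated, 10770 to 17050 on aly untreated and 4441 to 9235 on WT untreated arrays. These sums did not overlap between the genotypes under either condition, and they were nearly all Csf1r. Ccr2 and Fn1, the other markers measured, overlapped between the genotypes under both conditions. Neutrophil markers, 5 of 6 measured, summed to 270 to 14790 on aly treated, with the highest on replicate 1, 99.1 to 965.8 on WT treated, 224.8 to 2893 on aly untreated and 49.8 to 349.6 on WT untreated arrays. Natural killer cell markers, 4 of 5 measured, summed to 171 to 435.3 on aly treated, 438.6 to 1699 on WT treated, 114.9 to 511 on aly untreated and 108.4 to 293.9 on WT untreated arrays. Among treated DCs Klrk1 was lower in aly, at 58 to 150.7 against 246.7 to 339.2 in WT. Ncr1, Gzma and Prf1 overlapped between the genotypes there. The part of RNA quality, of DC subsets and of these other cells in the differences between aly and WT DCs was not tested. In pooled cells, fewer cells of a type and less RNA per cell cannot be told apart. The mutation of Map3k14 changes its protein and not its probe set, so the level of the gene does not check the genotype labels, and it differed by 0.08 ± 0.50 log2 units between aly untreated and WT untreated DCs (limma adjusted p = 0.97).

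The promoters are shown for 3 genes because Casp4 and Cflar were the called rises described below and Casp8 is the chromosomal neighbour of Cflar. Each window runs from 250 bases before to 50 bases after a RefSeq transcription start (GRCm38.p6, plus strand, 300 bases). The windows lie at chr9:5308599-5308898 for Casp4, chr1:58711241-58711540 for Cflar and chr1:58802252-58802551 for Casp8. Capitals mark matches to the motifs named after the sequences.
Casp4: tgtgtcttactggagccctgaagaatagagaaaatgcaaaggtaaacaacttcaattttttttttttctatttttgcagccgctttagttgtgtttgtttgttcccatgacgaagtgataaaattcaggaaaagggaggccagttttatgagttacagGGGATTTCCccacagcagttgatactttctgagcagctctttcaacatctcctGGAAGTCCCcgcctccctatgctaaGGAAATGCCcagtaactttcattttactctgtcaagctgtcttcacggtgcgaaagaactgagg
Cflar: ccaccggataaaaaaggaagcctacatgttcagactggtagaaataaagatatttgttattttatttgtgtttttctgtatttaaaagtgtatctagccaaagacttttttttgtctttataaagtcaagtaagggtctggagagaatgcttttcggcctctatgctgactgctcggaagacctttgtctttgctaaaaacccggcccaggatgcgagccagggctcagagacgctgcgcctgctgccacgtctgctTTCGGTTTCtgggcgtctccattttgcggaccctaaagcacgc
Casp8: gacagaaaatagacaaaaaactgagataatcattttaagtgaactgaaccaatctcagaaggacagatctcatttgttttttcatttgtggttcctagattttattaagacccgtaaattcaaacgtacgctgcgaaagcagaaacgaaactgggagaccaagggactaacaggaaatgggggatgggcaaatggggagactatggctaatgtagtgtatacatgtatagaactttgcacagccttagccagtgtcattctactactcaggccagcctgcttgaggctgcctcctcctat
The motifs were searched on both strands in the 11 windows of the 8 genes. The NF-kB pattern GGANNTTCC, which 4.26% of all 32851 RefSeq windows of this length hold, and the interferon-gamma activated pattern TTCNNNGAA, which 8.30% hold, had no match in any of the 11. The interferon-stimulated core GAAANNGAA, held by 8.56% of windows, matched once in Cflar, as TTCGGTTTC on the opposite strand starting 7 bases after the start, and once in 1 of the 3 windows of Xiap, as TTCCGTTTC starting at position -60. A wider NF-kB pattern, GGNNNTTCC, was added after the Casp4 window had been read, and 18.5% of all windows hold it. It matched 3 times in the Casp4 window, as GGGATTTCC at position -92, GGAAGTCCC at -39 and GGAAATGCC at -14, and in no window of the other 7 genes. The first of these has the letters of a classical NF-kB site. The GGANNTTCC and GGNNNTTCC patterns overlap, since each match of the first is also one of the second. A match describes letters and was not tested as a binding site.

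After LPS and anti-CD40, none of the 8 genes was called in aly DCs, where 0.486% of all genes were called, and in WT DCs 2 rose and 2 fell. In WT, Casp4, the inflammatory caspase that senses LPS in the cytosol, rose 10.7-fold and Cflar, the inhibitor of caspase-8, rose 4.91-fold. The executioner Casp6 fell to a level 6.15-fold lower, and Casp2, a caspase linked to genotoxic and mitotic stress, to one 2.91-fold lower. Of all genes tested, 4.95% were called higher and 4.75% lower in WT after treatment, beside 2 of 8 in each direction here. After centring each array on its median the counts were 2 higher and 1 lower of the 8, and 609 higher and 284 lower of all genes, against 744 and 714 without centring. The median log2 change of the 8 in WT was 0.14, beside -0.12 over all genes, and it ran between -0.01 without WT untreated replicate 2 and 0.26 without WT treated replicate 1 when each array was left out. Among treated DCs, Casp4, Cflar and Casp8 were lower in aly than in WT, 3 of 8 genes beside 2.64% of all genes. Among untreated DCs none of the 8 was called between the genotypes, beside 0.553% of all genes.

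**Figure D1:**
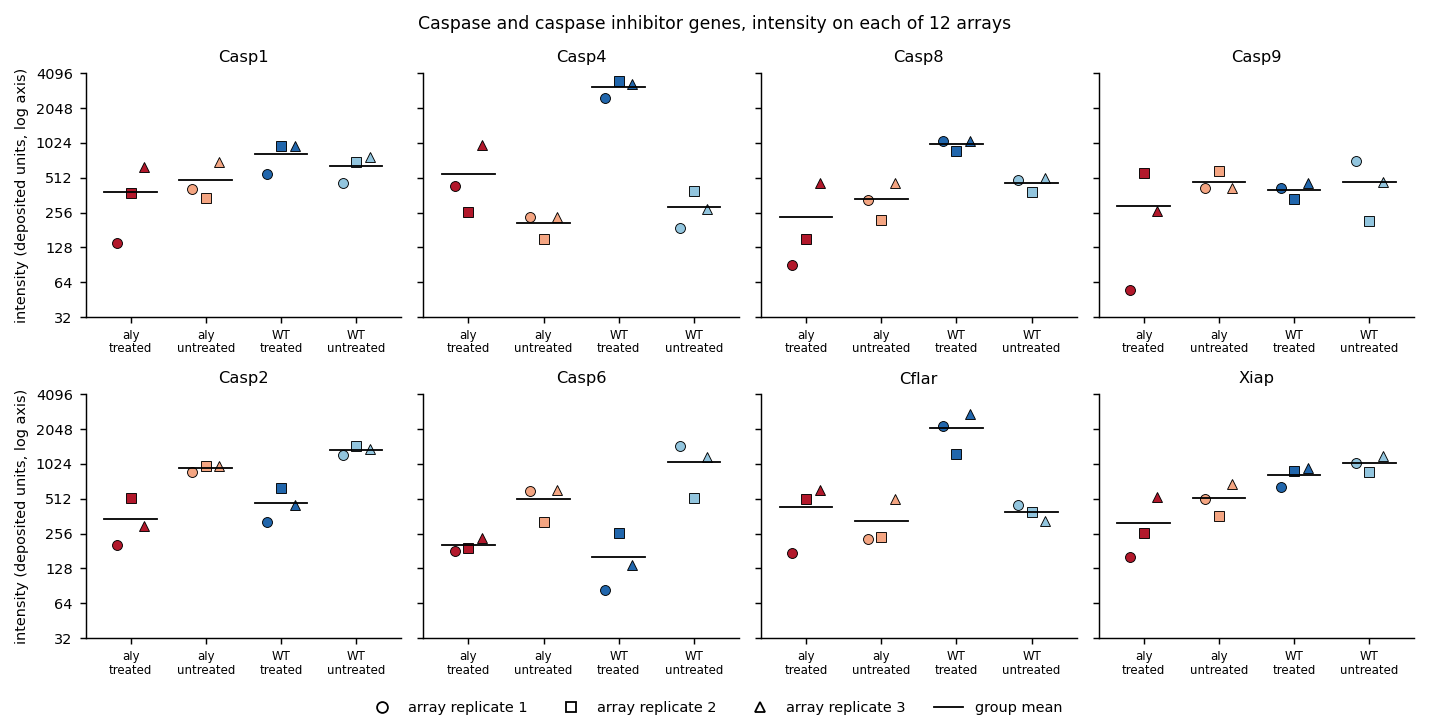
Intensity of the probe set that stands for each gene (vertical axis, deposited units on a log axis) on the 12 arrays, by group (aly treated, aly untreated, WT treated, WT untreated); each symbol is 1 array, its shape gives the replicate, and the black line is the mean of 3 arrays. Casp4 and Cflar stand highest on the 3 WT treated arrays, at 2495 to 3544 for Casp4 and 1250 to 2796 for Cflar, while Casp2 and Casp6 are lower on treated than on untreated arrays of both genotypes.

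Casp4 (probe set 1449591_at, chr9:5308849-5336791) is the mouse gene of the non-canonical inflammasome, whose protein binds LPS and cleaves gasdermin D. Its intensities were 433.5, 258.9 and 974.5 on aly treated arrays, against 234.8, 150.3 and 234.7 on aly untreated arrays. On WT treated arrays they were 2495, 3544 and 3288, against 186.8, 393.6 and 274.6 on WT untreated arrays. All 3 WT treated arrays lay above all 9 others, and within each genotype the treated and untreated arrays did not overlap. The change in aly was 1.18 ± 0.45 log2 units and was not called (limma adjusted p = 0.32). The change in WT was 3.42 ± 0.45 log2 units (limma adjusted p = 0.00013). It was 3.31 over replicates 2 and 3 and 3.63 over replicate 1 alone. The estimate in aly was thus the smaller one, and the test of that difference is the interaction given below. Among treated DCs, aly stood 2.64 ± 0.45 log2 units below WT, a 6.23-fold difference (limma adjusted p = 0.005). It was -2.57 without aly treated replicate 1, -2.72 over replicates 2 and 3 and -2.48 over replicate 1. Both calls of Casp4 were kept in 12 of 12 omissions of an array. Among untreated DCs the genotypes overlapped, with a difference of -0.40 ± 0.45 (limma adjusted p = 0.80). The means were 556 ± 373 in aly treated, 3109 ± 547 in WT treated, 207 ± 48.8 in aly untreated and 285 ± 104 in WT untreated DCs (SD, n = 3 each), so that WT treated ranked first and aly treated next. The arrays of aly treated and WT untreated DCs overlapped, and so did those of the 2 untreated groups.

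Casp1 (1449265_at) lies 1568 bases from Casp4 on chromosome 9, at chr9:5298517-5307281, and encodes the caspase of the canonical inflammasomes. Its intensities were 139.5, 380.2 and 636.9 on aly treated, 547.8, 969.6 and 968.6 on WT treated, 407.5, 345.4 and 701.2 on aly untreated and 460.1, 702.1 and 767.2 on WT untreated arrays. Neighbouring groups overlapped throughout, and the lowest array of all was aly treated replicate 1. The change was -0.48 ± 0.49 log2 units in aly (limma adjusted p = 0.68) and 0.34 ± 0.49 in WT (limma adjusted p = 0.76). Without aly treated replicate 1 the value in aly was 0.09. The genotype difference among treated DCs was -1.26 ± 0.49 (limma adjusted p = 0.14) and -0.69 without that array. It was called only without aly treated replicate 3 (limma adjusted p = 0.037). In WT the neighbours thus differed in call, since Casp4 rose and Casp1 was not called, and a difference between them was not tested.

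The list of other inflammasome genes was taken from general knowledge of the pathway. It holds sensors, the adaptor Pycard, Nek7 and Txnip, gasdermin D and the cytokine genes Il1a, Il1b and Il18. Naip2, Naip5 and Naip6 are counted in this list and also among the inhibitor of apoptosis genes below. Of its 16 genes 13 were measured, and 1 was called higher and 0 lower in WT after treatment, with a median log2 change of -0.55. Over all genes 4.95% were called higher and 4.75% lower in WT, with a median of -0.12. The gene called was Gsdmd, the pore-forming substrate of both inflammatory caspases. In aly it had 1062, 903 and 1200 on treated and 883.6, 664.9 and 885.2 on untreated arrays. In WT it had 2440, 1431 and 2158 on treated and 631.8, 549.4 and 584.8 on untreated arrays, a rise of 1.71 ± 0.34 log2 units (limma adjusted p = 0.0043). Treated arrays were above untreated ones in both genotypes. None of the 13 was called in aly or between the genotypes by limma, with 2 below 0 at an unadjusted p under 0.05 in aly, and 2 above and 2 below 0 between the genotypes among treated DCs.

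Casp8 (1424552_at, chr1:58795233-58847503) encodes the initiator recruited to death receptors, which also restrains necroptosis. Its intensities were 90.3, 150.4 and 458.1 on aly treated, against 1057, 879.6 and 1054 on WT treated arrays. The untreated arrays gave 327.3, 222.2 and 459.1 in aly and 491.7, 383 and 509.9 in WT. All WT treated arrays lay above the other 9. Among treated DCs the gene was lower in aly by 2.31 ± 0.47 on the log2 scale, 4.97-fold (limma adjusted p = 0.013). The difference was -1.85 without aly treated replicate 1 (limma adjusted p = 0.016), while over replicates 2 and 3 it was -1.80 and missed the threshold (limma adjusted p = 0.057). It was -3.34 over replicate 1 alone. The sign was thus the same in both sets of arrays. Leaving out WT treated replicate 3 also ended the call (limma adjusted p = 0.087). The treatment changes behind this difference were -0.74 ± 0.47 in aly (limma adjusted p = 0.50) and 1.09 ± 0.47 in WT (limma adjusted p = 0.17), and neither was called. Without aly treated replicate 1 the change in aly was -0.27 (limma adjusted p = 0.90).

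Death receptors, their ligands, adaptors and regulators, and the necroptosis genes Ripk3 and Mlkl formed a list of 14 genes, 12 of them measured. In WT 2 were called higher and 0 lower, with a median of 0.44, beside 4.95% and 4.75% of all genes and their median of -0.12. Fas, a death receptor, had 83.3, 71.7 and 92.7 on aly treated arrays, against 2.4, 24.3 and 9.3 on aly untreated arrays. It had 643.6, 657.4 and 1141 on WT treated arrays, against 14, 4.1 and 20.1 on WT untreated arrays. Treated arrays were above untreated ones in both genotypes, and the aly treated arrays lay between the WT groups. Fas rose in aly by 1.89 ± 0.39 log2 units (limma adjusted p = 0.042) and in WT by 4.84 ± 0.39 (limma adjusted p = 2e-06), but the call in aly was lost when any 1 of the 12 arrays was left out. Among treated DCs it was 3.03 ± 0.39 log2 units lower in aly (limma adjusted p = 0.0011). Mlkl, the effector of necroptosis, had 256.5, 85.8 and 58.6 on aly treated and 30.5, 6.2 and 22.3 on aly untreated arrays, a change of 1.90 ± 0.48 log2 units that was not called (limma adjusted p = 0.12). In WT it had 268.5, 150.3 and 126.6 on treated and 17.3, 3.2 and 6.1 on untreated arrays, a rise of 2.97 ± 0.48 (limma adjusted p = 0.00096). Apart from Fas, none of the 12 was called between the genotypes among treated DCs.

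Casp9 (1437537_at, chr4:141793612-141815978) encodes the initiator of the apoptosome. It had 54.9, 563.6 and 262.3 on aly treated, 413.6, 336.9 and 463.9 on WT treated, 416.8, 583.1 and 417.5 on aly untreated and 719.2, 216.7 and 470.4 on WT untreated arrays. The 4 groups overlapped, and its standard error of 0.60 was the largest of the 8 genes in the single contrasts. The change was -1.10 ± 0.60 in aly (95% interval -2.37 to 0.17) and -0.06 ± 0.60 in WT (95% interval -1.33 to 1.20), neither called by limma (adjusted p = 0.43 in aly and 0.97 in WT). Without aly treated replicate 1, the lowest of the 12 arrays for this gene, the change in aly was -0.26 (limma adjusted p = 0.91). The difference between aly and WT among treated DCs was -0.89, and -0.06 without that array (limma adjusted p = 0.96). Over replicates 2 and 3 the WT value turned to 0.29. Its 2 other probe sets stayed at 2.3 to 86.5 and were not called in any comparison.

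Of the 8 genes listed for the apoptosome and mitochondrial release, all measured, 1 was called higher and 0 lower in WT. Of all genes, 4.95% were called higher and 4.75% lower there. The median of the list was -0.44 beside -0.12 over all genes. The gene called was Apaf1, the scaffold on which caspase-9 assembles. It had 546.1, 746.2 and 778.8 on aly treated, against 369.4, 525.5 and 483.2 on aly untreated arrays. The WT arrays gave 2646, 2334 and 3217 when treated, against 611.4, 703.4 and 952 when untreated, a rise of 1.84 ± 0.34 log2 units (limma adjusted p = 0.0026). All WT treated arrays lay above the other 9 for the scaffold, while the groups of its caspase overlapped.

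Casp2 (1448165_at, chr6:42264902-42282508) had 203.3, 523.7 and 299.3 on aly treated against 870.1, 987.2 and 977.8 on aly untreated arrays. In WT it had 324.8, 633.6 and 456.4 on treated against 1229, 1462 and 1378 on untreated arrays. Treated arrays lay below untreated ones without overlap in both genotypes. The change was -1.52 ± 0.38 log2 units in aly (limma adjusted p = 0.12) and -1.54 ± 0.38 in WT (limma adjusted p = 0.019). The change in aly was called only without aly treated replicate 2 (limma adjusted p = 0.043). The difference between the changes, aly minus WT, was 0.02 ± 0.54 (95% interval -1.14 to 1.17). The call in WT was lost when WT treated replicate 1 or 3 or any 1 WT untreated array was left out, with an adjusted p of up to 0.11, and over replicates 2 and 3 (-1.37, limma adjusted p = 0.056). It was -1.87 over replicate 1.

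Casp6 (1415995_at, chr3:129901415-129914112), the executioner caspase that cleaves nuclear lamins, had 182.9, 190.9 and 235.5 on aly treated arrays, against 602.6, 325.9 and 614.1 on aly untreated arrays. In WT it had 83.1, 259.5 and 136.2 on treated and 1470, 525.1 and 1184 on untreated arrays. Treated arrays lay below untreated ones in both genotypes with no overlap. In aly the change was -1.23 ± 0.46 and not called (limma adjusted p = 0.32). The gene fell by 2.62 ± 0.46 on the log2 scale in WT (limma adjusted p = 0.0017). The change in WT was -1.98 over replicates 2 and 3 (limma adjusted p = 0.025) and -3.91 over replicate 1 alone, so the direction was the same in both sets of arrays. Its call in WT was kept in 12 of 12 omissions of an array. The second probe set (1458715_at) stayed between 9.5 and 33.3 and was not called. Markers of the cDC1 subset, of which 5 of 6 were measured, summed to 1646 to 6080 on aly treated and 10530 to 12120 on aly untreated arrays, and to 2078 to 5104 on WT treated and 6939 to 13490 on WT untreated arrays. They were lower on treated arrays as Casp2 and Casp6 were, and their part in those changes was not tested.

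Of 10 caspase substrates listed, all measured, 0 were called higher and 1 lower in WT. Of all genes, 4.95% were called higher and 4.75% lower there. The median of the list was -0.32 beside -0.12 over all genes. The substrate called lower was Parp1, the DNA repair enzyme cut during apoptosis. Parp1 in aly had 196.3, 341.5 and 437.4 on treated and 454.4, 357 and 307.3 on untreated arrays, which overlapped. In WT it had 111, 198.5 and 90.6 on treated and 501.8, 514.4 and 473.2 on untreated arrays, a change of -1.84 ± 0.38 (limma adjusted p = 0.0063). Of the other caspases listed, Casp12 and Casp14 were measured, and neither was called in any of the 5 comparisons.

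**Figure D2:**
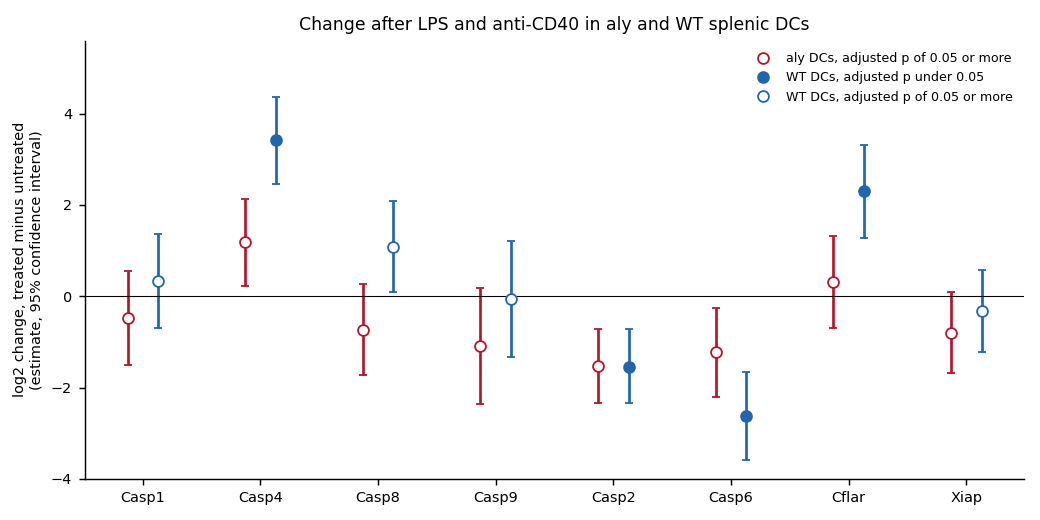
Log2 change after LPS and anti-CD40 (vertical axis, treated minus untreated, with 95% confidence intervals) of each gene in aly (red, left of each pair) and WT DCs (blue, right); filled points have a limma adjusted p under 0.05. In WT, Casp4 and Cflar are filled above 0 and Casp2 and Casp6 below it, and all 8 points of aly are open, with Casp2 at -1.52 in aly and -1.54 in WT.

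Cflar (chr1:58711311-58758884) lies 36349 bases from Casp8 and encodes a catalytically dead relative of caspase-8. The probe set that stands for it (1424996_at) had 175.8, 509.1 and 612.6 on aly treated against 229.9, 238 and 510.6 on aly untreated arrays. On WT arrays the intensities were 2188, 1250 and 2796 when treated against 452.2, 395.8 and 328.1 when untreated. WT treated arrays lay above all others and the aly groups overlapped. In aly the change was 0.31 ± 0.48 log2 units (limma adjusted p = 0.80). Cflar rose in WT by 2.30 ± 0.48 log2 units (limma adjusted p = 0.0063), a call kept in 12 of 12 omissions, with 2.33 over replicates 2 and 3 and 2.24 over replicate 1. Among treated DCs aly was lower by 2.32 ± 0.48 on the log2 scale, 4.99-fold (limma adjusted p = 0.013). This was -1.79 without aly treated replicate 1 (limma adjusted p = 0.016), -1.72 over replicates 2 and 3 (limma adjusted p = 0.053) and -3.52 over replicate 1 alone. The call was lost without WT treated replicate 3 (limma adjusted p = 0.10).

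The 5 probe sets of Cflar did not all behave alike in aly. In a limma fit over all 34205 probe sets, 0.257% were called higher after treatment in aly and 3.82% in WT, and 2.01% were called lower in aly than in WT among treated DCs. In aly all 5 Cflar probe sets had a positive change, 0.31 to 1.76 log2 units, with 1 called, and in WT the 5 changed by 0.51 to 3.43, with 3 called. Probe set 1449317_at had 399.8, 267.4 and 513.7 on aly treated, against 90.5, 98.6 and 116.6 on aly untreated arrays. It had 1716, 1951 and 1691 on WT treated, against 119.5, 195.2 and 146.1 on WT untreated arrays. Unlike 1424996_at, it showed treated above untreated arrays in aly as well as in WT. Its change was 1.76 ± 0.36 log2 units in aly (limma adjusted p = 0.049) and 3.43 ± 0.36 in WT (limma adjusted p = 1.4e-05), and the call in aly remained in 1 of 12 omissions of an array. Among treated DCs it was lower in aly by 2.18 ± 0.36 on the log2 scale (limma adjusted p = 0.0048), a call kept in 12 of 12 omissions. Among treated DCs the 5 probe sets differed between the genotypes by -2.32 to -0.08 with 2 called. The lower signal in aly treated than in WT treated DCs was thus called on 1424996_at and 1449317_at, and the probe sets disagreed on the size of the change in aly.

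**Figure D3:**
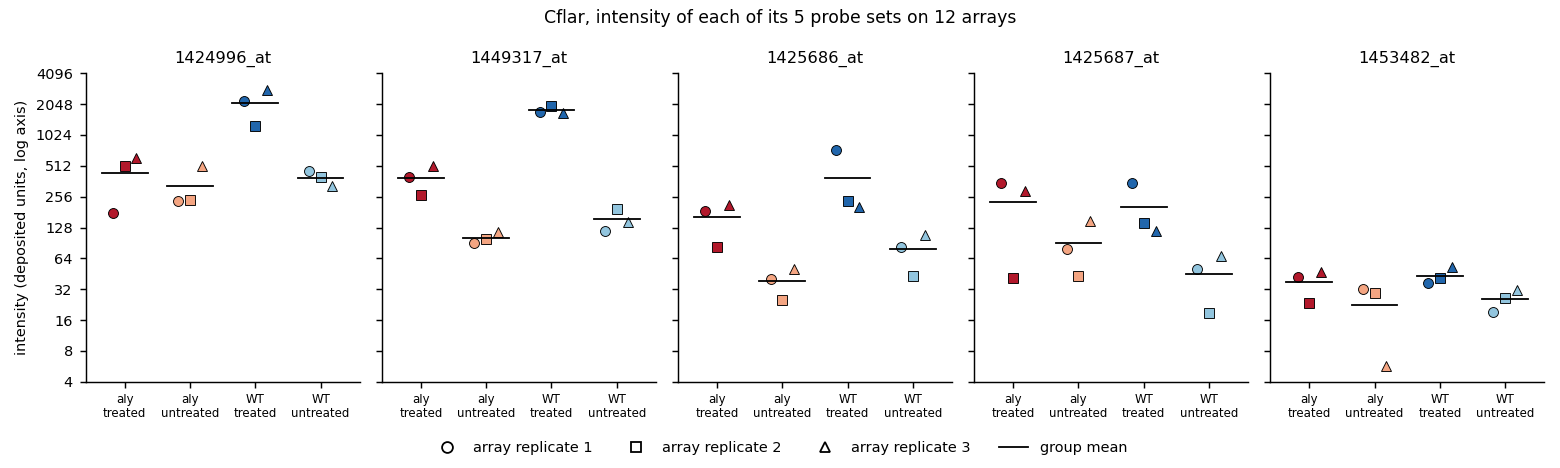
Intensity (vertical axis, deposited units on a log axis) of each of the 5 probe sets of Cflar on the 12 arrays, by group (aly treated, aly untreated, WT treated, WT untreated); symbols give the replicate and the black line the mean of 3 arrays. On 1424996_at the aly treated and aly untreated arrays overlap, whereas on 1449317_at the aly treated arrays, at 267.4 to 513.7, lie above the aly untreated ones, at 90.5 to 116.6.

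Xiap (1437533_at, chrX:42059613-42109664) had 160, 261.8 and 535.1 on aly treated against 644.4, 892.8 and 952.6 on WT treated arrays. Untreated arrays had 514.9, 362.2 and 687.3 in aly against 1047, 868 and 1200 in WT. Aly arrays lay below WT arrays without overlap under both conditions, and no difference was called. The difference among treated DCs was -1.48 ± 0.42 log2 units (limma adjusted p = 0.053) and among untreated DCs -1.01 ± 0.42 (limma adjusted p = 0.41). Without aly treated replicate 1 the value among treated DCs was -1.09 (limma adjusted p = 0.10), and over replicates 2 and 3 it was -1.26, whereas without aly treated replicate 3 it was called (limma adjusted p = 0.012). It was also called with the replicate number as a block (limma adjusted p = 0.03), with replicate 1 set apart from replicates 2 and 3 as a block for the spike-in level (0.035), with array weights (0.0047), with an offset of 64 (0.035) and with a stricter filter (0.039). The treatment changes were -0.80 ± 0.42 in aly (limma adjusted p = 0.42) and -0.32 ± 0.42 in WT (limma adjusted p = 0.74). The 6 other probe sets of Xiap gave other values, 3 of them above 0 and 3 between -0.25 and -0.01 log2 units among treated DCs. Over all 7 the difference ran between -1.48 and 1.16, and none was called. With the 7 averaged on each array it was 0.04. Several of these values moved without aly treated replicate 1, on which 1426636_a_at had 224.3 against 16.7 and 14.2 on the other aly treated arrays. Its difference was 1.16 with that array and 0.18 without it. Without that array 2 of the 6 others were above 0, at 0.18 and 0.20, the lowest was -0.67, and 1437533_at stood at -1.09.

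Other inhibitor of apoptosis genes formed a list of 9 together with Xaf1, which is not itself such an inhibitor, and 8 of the 9 were measured. In WT 2 of them, Birc2 and Xaf1, were called higher and 0 lower, where 4.95% of all genes were called higher. The median of the list was -0.26 beside -0.12 over all genes. Birc2, which encodes a ubiquitin ligase that also promotes the breakdown of NIK, had 8509, 3465 and 2609 on aly treated, against 849.5, 1247 and 1402 on aly untreated arrays. The WT arrays had 6945, 4869 and 8199 when treated and 610.5, 946.5 and 879.8 when untreated. Treated arrays were above untreated ones in both genotypes, and the treated arrays of the genotypes overlapped. The change was 1.88 ± 0.44 log2 units in aly and not called (limma adjusted p = 0.077), and the rise in WT was 3.00 ± 0.44 (limma adjusted p = 0.00034). Xaf1, a partner of XIAP, had 3455, 640.7 and 915.7 on aly treated and 243, 205.8 and 290.9 on aly untreated arrays, a change of 2.30 ± 0.50 (limma adjusted p = 0.058). On WT arrays it had 1679, 1834 and 1587 when treated and 302.1, 241.5 and 511.5 when untreated, a rise of 2.29 ± 0.50 (limma adjusted p = 0.0091). No gene of this list was called in aly or among untreated DCs.

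Treatment in aly was read over the 8 genes as a whole against its own background. By limma 0 of 8 were called, where 0.486% of all genes were called in either direction. At an unadjusted p under 0.05 there were 3, Casp4 above 0 and Casp2 and Casp6 below it, beside 12.9% of all genes. The median of the 8 was -0.77, beside -0.08 over all genes, but it was -0.27 without aly treated replicate 1 and -1.24 without aly treated replicate 3. Casp4, Casp2 and Casp6 were the genes of the 8 whose treated and untreated aly arrays did not overlap. How many of all genes did so was not counted, and the unadjusted p comes from the same arrays, so this adds no support.

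Between the genotypes, 3 of 8 genes were called lower in aly among treated DCs and 0 higher, where 2.64% of all genes were called lower and 2.74% higher. After median centring the 3 calls stood, while all genes split into 84 higher and 423 lower, against 411 and 396 without it. At an unadjusted p under 0.05 there were 5, all lower in aly, beside 22.9% of all genes in either direction. The median of the 8 was -1.37, beside 0.19 over all genes, and Casp6 at 0.44 ± 0.46 was the only positive value. Without aly treated replicate 1 that median was -0.89, and without aly treated replicate 3 it was -1.82. The 3′ to 5′ ratio and the summed macrophage markers given above also did not overlap between aly and WT arrays. Of the listed pathway genes, Fas and Apaf1 were also called lower in aly, with Apaf1 at -1.96 ± 0.34 log2 units (limma adjusted p = 0.0055). Endog, a mitochondrial nuclease, and Birc5, a mitotic inhibitor of apoptosis protein, were called higher, and both were chosen for naming after their values were seen. Endog had 782.6, 149.1 and 110.9 on aly treated against 21.3, 42.3 and 1 on WT treated arrays, a difference of 2.94 ± 0.59 (limma adjusted p = 0.012). Birc5 had 456.7, 658.2 and 442.4 on aly treated against 158.5, 182 and 201.2 on WT treated arrays, a difference of 1.43 ± 0.34 (limma adjusted p = 0.026). Leaving out WT treated replicate 3 ended the calls of Apaf1 (limma adjusted p = 0.055) and Endog (0.10), and that of Birc5 held in 8 of 12 omissions.

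**Figure D4:**
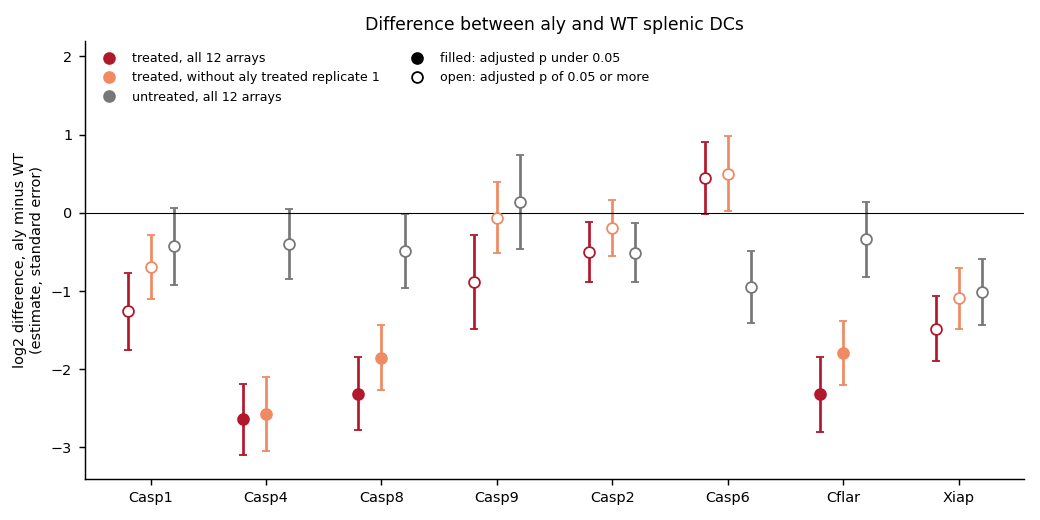
Log2 difference between aly and WT DCs (vertical axis, aly minus WT, with standard errors) for each gene among treated DCs with all arrays (red) and without aly treated replicate 1 (orange), and among untreated DCs (grey); filled points have a limma adjusted p under 0.05. Casp4, Casp8 and Cflar are filled below 0 among treated DCs with and without that array, and all 8 untreated points are open.

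Among untreated DCs 0 of the 8 genes were called by limma, where 0.553% of all genes were called in either direction, and 1 of 8, Xiap, had an unadjusted p under 0.05 beside 10.5% of all genes. The median of the 8 was -0.46, beside 0.10 over all genes, and ran between -0.71 without aly untreated replicate 3 and -0.23 without aly untreated replicate 2. Casp2 and Xiap were the 2 genes whose untreated arrays did not overlap between aly and WT. The share of all genes that separated in this way was not counted, so this describes the arrays only. The comparisons share arrays, so the values of a gene in them are not independent.

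Whether the response itself differed between the genotypes was read from the interaction, the change in aly minus the change in WT. By limma 0 of the 8 were called, where 0.153% of all genes were called, and 4 of 8 had an unadjusted p under 0.05 beside 8.02% of all genes. The values were -2.24 ± 0.63 for Casp4 (limma adjusted p = 0.29), -1.98 ± 0.68 for Cflar (limma adjusted p = 0.41), -1.83 ± 0.66 for Casp8 (limma adjusted p = 0.47) and 1.39 ± 0.65 for Casp6 (limma adjusted p = 0.62). No call of Casp4, Cflar or Casp6 in aly beside a call in WT is therefore not shown to be a difference between the genotypes in response.

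The genes most like each of the called genes were found by Pearson's r of log2(intensity + 16) over the 12 arrays, among all genes tested, as a description that reflects the shared groups and the shared array of aly treated replicate 1. For Casp4 they were Irgm1, an interferon-induced GTPase (r = 0.989), Cd80, a costimulatory ligand (0.974), and Isg20, an interferon-stimulated nuclease (0.973). Without aly treated replicate 1, Irgm1 was again first for Casp4 (0.991). For Cflar they were Etnk1 (0.972), Tmem123 (0.968) and Parp9 (0.964), and without that array Tnfaip3, an inhibitor of NF-kB signalling, came first (0.981). For Casp6 the first was Ccr9, a chemokine receptor (0.969), for Casp2 it was Tnfsf14, a ligand of the tumour necrosis factor family (0.957), and for Casp8 it was Crybg1 (0.981). Without that array Dera came first for Casp6 (0.983) with Ccr9 next (0.971), Rtl8c came first for Casp2 (0.960) and Crybg1 was again first for Casp8 (0.977).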

How the data were processed

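Expression was measured in sorted splenic DCs of 4 groups with 3 arrays each. The authors deposited 1 intensity for each of 45101 probe sets on each array, on a linear scale, and the 2% trimmed mean of 150.001 on every array shows a scaling to a common target. Neither the array software nor a background step is named in the labels. Probe sets were named through the platform annotation, of which 34958 have 1 symbol, 932 several and 9211 none, and 64 are controls. The filter kept 34205 probe sets that exceeded the 40th percentile of an array at least 3 times. Values were used as log2(intensity + 16). limma 3.58.1 in R 4.3.3 (tables read with the package data.table, version 1.17.8) fitted 1 mean per group over all 12 arrays, with 8 residual and 8.04 prior degrees of freedom. It was tested on simulated data in which each gene had independent noise of the same spread on every array. Such data hold no outlying array like aly treated replicate 1, so that test does not vouch for the fit on these arrays. The number of arrays limits the precision.

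The 8 genes were named in full. Of each of 6 pathway lists, counts and up to 3 genes with the smallest p of the WT treatment comparison were named, and for likeness the 3 genes of highest r. The genes and lists were chosen with earlier results of these data known. Same-numbered arrays of different groups had correlations of their deviations of -0.03 to 0.30, over 0.1 in 8 of 18 pairs, while those of different numbers had -0.29 to 0.23, over 0.1 in 2 of 36. Pairing was taken only where every same-numbered pair exceeded 0.1, so numbers were not taken as pairs. Alternatives covered the offset, filter, scaling, choice of probe set, array weights, blocks and omission of each array. Promoter sequences are those of RefSeq. Protein sequences were not used here.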

Additional observations from a re-analysis of the deposited data

Results flagged for a closer look

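Of the genes named, Fas was the one whose response to treatment differed between the genotypes by the test of that difference. Its change in aly minus its change in WT was -2.96 ± 0.56 log2 units (limma adjusted p = 0.046), with treated arrays above untreated ones in both genotypes. The call remained in 1 of 12 omissions of an array, the one that left out aly treated replicate 1, and was lost over replicates 2 and 3 (-3.42, limma adjusted p = 0.064). No gene of the 8 met this test, and groups of 3 arrays were not tested for outlying arrays.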

How the results depend on the processing

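Of the 8 genes, the number called lower in aly among treated DCs was 3, and it was 1 with an offset of 1, 0 when only the groups compared were fitted, 1 over replicates 2 and 3 and 1 to 5 when each array was left out. All genes called there numbered 807, against 231 with an offset of 1, 27 in the groups compared alone, 507 after median centring, 1297 probe sets tested singly and 2886 with array weights. With each array left out they ran from 81 without WT treated replicate 3 to 1544 without aly treated replicate 3, with 303 without aly treated replicate 2. In the interaction 0 were called and 1 with array weights, Casp4 at -2.64 (limma adjusted p = 0.019), while all genes called numbered 23, and 360 with weights. In aly after treatment 0 were called, and 0 to 1 with each array left out. For WT treatment 4 of the 8 were called and 3 to 5 under the alternatives, beside 1458 genes in all and 893 to 3370 under median centring and array weights, and 587 to 2843 with each array left out. Among untreated DCs 83 genes were called, and 0 after median centring, with an offset of 1, or without aly untreated replicate 1 or 3 or WT untreated replicate 3. They were 1 without WT untreated replicate 2, 4 without aly untreated replicate 2, 396 without aly treated replicate 1, 133 with the replicate number as a block, 393 in the groups compared alone and 617 with weights. Leaving out each array gave 1 to 113 genes in the interaction and 13 to 102, against 73, for treatment in aly, and the other alternatives ran from 1 with an offset of 1 to 360 in the interaction and from 6 in the groups compared alone to 164 with weights in aly. With the replicate number as a block, Xiap among treated DCs passed at -1.48 (limma adjusted p = 0.03; 0.035 when the block was the spike-in level) and no other call among the 8 changed. Signs turned for values that were not called with all arrays and the settings described above. These were Casp1 in aly (-0.95 to 0.09 with each array left out) and Cflar in aly (-0.01 to 0.84 with arrays left out, -0.36 over replicate 1 alone). Casp4 turned among untreated DCs (0.31 over replicate 1 alone). Casp2 turned among treated DCs (0.01 with array weights) and in the interaction (-0.08 after median centring, -0.33 to 0.32 with arrays left out). Casp9 turned among treated DCs (0.14 with array weights) and in WT after treatment (0.29 over replicates 2 and 3, -0.52 to 0.31 with arrays left out). Among untreated DCs Casp9 turned as well (-0.03 for the mean of all probe sets, -0.11 after median centring, -0.31 to 0.52 with arrays left out). Xiap turned as the mean of its probe sets (0.04 among treated DCs, 0.26 in the interaction, 0.15 in aly). Of these values, only that of Xiap among treated DCs was called under any alternative, as given above. Median centring put the median of all genes among treated DCs at -0.159, against 0.188 without it. The cause of these changes was not tested. Cflar among treated DCs also missed the threshold as the mean of its probe sets (-1.16, limma adjusted p = 0.054). Dim probe sets are limited by the offset.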
